A study of Homo sapiens with 22 samples.

Results

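Among the RNA sites that came down with QKI5 in control THP-1 cells, 156 had at least 15 reads, lay off every H3K4me3 peak of the control cells, and belonged to a RefSeq protein-coding gene shorter than 200 kb with 1 to 7 rows in the control list. They are 156 of the 7337 control peaks and come from 110 genes. The read number of the control list chose them, so their reads, enrichment, p-value and width in that list are given as a description. H3K4me3 is the histone mark of active promoters.

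THP-1 is a human monocytic leukaemia line. The cells received a lentivirus with a short hairpin against QKI5 (sh-QKI5, here knockdown) or a control hairpin (sh-control), per the labels. The design text of the series speaks of untreated cells where the labels give sh-control. The lists used here come from QKI5 CLIP, Pol II ChIP and H3K4me3 ChIP, each with 2 knockdown and 2 control samples. CLIP (crosslinking and immunoprecipitation) maps RNA bound by a protein, and ChIP maps the DNA under a protein or a histone mark. Each deposited list pools both replicates of its group, so no spread between replicates can be given, no p-value is given for knockdown against control, and the depth of each sample is unknown. Neither the level of QKI5 left in knockdown cells nor any RNA level was analysed here. The control CLIP list was longer than the knockdown one, with 669 peaks in knockdown, 150 of them of 15 or more reads, against 7337 and 596 in control. Of 10 monocytic marker genes, 9 had an H3K4me3 and a Pol II peak within 1 kb of a gene end in every list, and the exception was MPO, while the T cell markers had H3K4me3 at 1 of 6 genes and Pol II at none in either condition. B cell markers had H3K4me3 at 2 of 4 genes in both conditions and Pol II at 1 in knockdown and 2 in control, fibroblast markers had H3K4me3 at 1 of 4 and no Pol II, and of 5 hepatocyte and epithelial markers APOA1 alone had peaks, with both marks in every list.

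QKI is an RNA-binding protein of the STAR family. It recognises the element ACUAAY and is known for its part in splicing, in RNA stability and in the formation of circular RNAs. QKI5 is the isoform that stays in the nucleus, where it meets RNA while Pol II, the polymerase of messenger RNA genes, is still making it. CLIP reads gather on RNA that is bound and also on RNA that is abundant, and for this reason a peak is usually scored against a background library.

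No genome sequence of the build of the files was used here, so the letters of the CLIP sites are not shown. The DNA just upstream of the genes can be shown, from RefSeq sequences of GRCh38.p14. A script searched the 250 bases before each listed start for ACTAAC or ACTAAT, the DNA letters of the QKI element, on both strands. At least 1 of these motifs was present in 12 of 136 promoters of the genes with high-read sites (8.82%), and in 1649 of 22199 promoters of all protein-coding genes (7.43%). The promoters belonged to 90 of the 110 genes, and 10 of those genes held a motif. The share in the genes with high-read sites is close to that in all genes. A match here is a run of letters in DNA and not a binding site. The windows of SON and PRPF8, both splicing genes described below, are shown in the direction of the gene with the motif in capitals. The SON window is chr21:33542788-33543037 on the plus strand and the PRPF8 window is chr17:1684868-1685117 on the minus strand.
SON: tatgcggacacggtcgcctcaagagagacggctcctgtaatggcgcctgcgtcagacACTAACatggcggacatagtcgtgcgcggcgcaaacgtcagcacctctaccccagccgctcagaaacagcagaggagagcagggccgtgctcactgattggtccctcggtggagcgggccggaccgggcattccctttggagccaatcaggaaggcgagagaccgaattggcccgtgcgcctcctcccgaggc
PRPF8: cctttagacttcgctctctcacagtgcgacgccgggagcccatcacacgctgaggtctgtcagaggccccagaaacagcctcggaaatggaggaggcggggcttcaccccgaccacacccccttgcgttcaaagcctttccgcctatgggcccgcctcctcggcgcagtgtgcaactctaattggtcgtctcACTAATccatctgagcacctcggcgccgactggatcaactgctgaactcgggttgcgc
Both genes carried both marks at their start in both conditions. The H3K4me3 peak at the start of SON was 7352 bp wide in knockdown and 7069 bp in control, and its Pol II peak was 5520 bp wide in knockdown and 5749 bp in control. At the start of PRPF8 the H3K4me3 peak was 2632 bp wide in knockdown and 2606 bp in control, and the Pol II peak 2229 bp in knockdown and 2321 bp in control.

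Most of the sites were only just above the minimum. The 156 sites had 15 to 249 reads with a median of 17, and 120 of them had 15 to 20 reads. Only 12 had over 40. Their log2 enrichment over background, as the authors gave it, ran from 3.02 to 9.35 with a median of 4.08, and 39 sites reached 6. Their widths ran from 5 to 217 bp with a median of 55.5 bp. Neighbouring rows of the list often touch each other, and the 156 sites form 120 separate runs. At the minimum itself, 32 sites had exactly 15 reads, with a median log2 enrichment of 3.74, and the highest of these were in VASN (5.83), TMEM81 (5.51) and TOMM70 (5.51). Just below it, 73 sites that met the rest of the rule had 14 reads, with a median of 4.15, among them a row in DCUN1D3 at 7.73.

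The enrichment values hold the background as well. For 7254 of 7337 control peaks the linear enrichment equals the reads divided by a whole number, times 15.2. This number came out whole, within 0.01, at all 156 sites. It is called the implied background here, as a reading of the values that no source states. It ran from 1 to 445 reads with a median of 14.5. Reads alone cannot tell apart how much RNA of a gene the cells held and how much of it was bound. RPSA, a protein of the small ribosomal subunit and a laminin receptor, had the most CLIP reads, 249, and an implied background of 445. MPO, with 58 reads at its strongest site, had an implied background of 2 there.

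**Figure D1:**
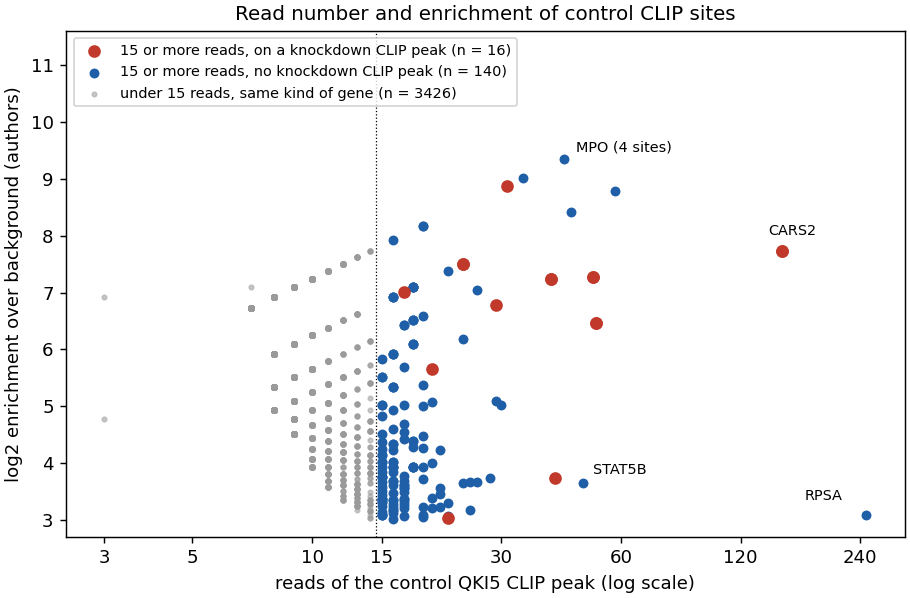
Reads of each control CLIP peak (horizontal, log scale) against the log2 enrichment given by the authors (vertical). Red points are high-read sites in shorter genes that overlap a knockdown CLIP peak (n = 16), blue points are the other such sites (n = 140), and grey points are sites under 15 reads in the same kind of gene (n = 3426); points with equal values cover each other, and the dotted line marks the minimum. MPO stands at high enrichment, RPSA at the most reads with a log2 enrichment of 3.09.

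MPO (myeloperoxidase, the peroxidase of neutrophil and monocyte granules) held the strongest enrichment. Its 4 sites, on the minus strand of chromosome 17 (GRCh38.p5), were 58273520-58273659 with 58 reads, 58271683-58271718 with 34, 58270780-58270851 with 43 and 58270449-58270532 with 45. Their log2 enrichments were, in the same order, 8.78, 9.01, 9.35 and 8.42, and the implied background was 1 or 2 reads at each. The sites run from 66.3% to 94.3% of the way along the gene, which is 11.1 kb long, and they are all the rows that MPO has in the control list. The knockdown list had no CLIP peak assigned to MPO. No list had an H3K4me3 or a Pol II peak within 1 kb of either end of MPO. The nearest Pol II peak lay 8595 to 11722 bp from the sites in knockdown and 10455 to 13582 bp in control.

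SRGN and STAT5B are 2 other genes known in myeloid cells. SRGN encodes serglycin, the proteoglycan that packs granule proteins, and its site on chromosome 10 (69103871-69104004, plus strand) had 26 reads, a log2 enrichment of 7.04 and an implied background of 3. It lay 94.9% along the gene, inside a Pol II peak of 23549 bp in knockdown and of 25220 bp in control. The widest H3K4me3 peak within 1 kb of either end of SRGN was 11259 bp in knockdown and 13620 bp in control. STAT5B, a transcription factor that carries cytokine signals, had its site at 97.4% of the gene (chromosome 17, 42201456-42201560, minus strand). That site had 48 reads, a log2 enrichment of 3.65 and an implied background of 58. It lay 2736 bp from the nearest Pol II peak in knockdown and 4604 bp in control. Both sites lie close to the 3′ end of their gene, with fewer reads and a higher enrichment at SRGN.

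The genes with 3 or more high-read sites were MPO, SON with 5 sites, LENG8 with 4, and CDCA5, SIN3B, UNC5B and DHX38 with 3 each. SON is a nuclear speckle protein needed for splicing. Its sites had 15 to 17 reads and log2 enrichments of 3.08 to 3.37, in 2 runs between 20.03% and 29.3% of the gene. LENG8 had 2 runs near the middle of the gene, the stronger with 26 and 21 reads and log2 enrichments of 3.67 and 3.23. CDCA5 (sororin, which protects the cohesion of sister chromatids) had 1 run with 19, 19 and 16 reads. In SIN3B, a scaffold of histone deacetylase complexes, all 3 sites had 17 reads and log2 enrichments of 4.43 to 5.01. UNC5B, a netrin receptor, and DHX38, a helicase of the spliceosome, had 16 reads at each site, with log2 enrichments of 5.34 to 5.92 in UNC5B and 3.92 to 4.34 in DHX38. Touching rows with equal read numbers may hold the same reads. Of the 110 genes, 75 had 1 high-read site and 28 had 2, and for 34 sites the row was the only one of its gene.

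**Figure D2:**
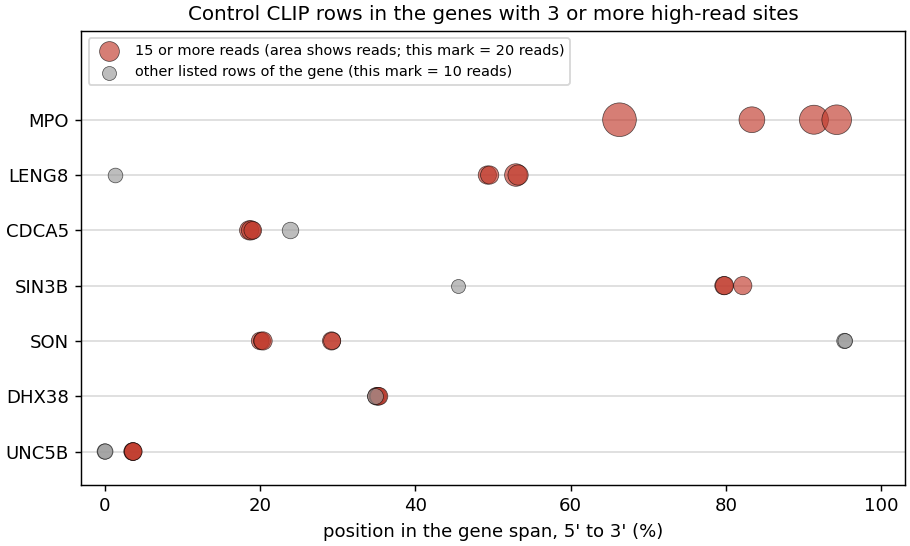
Position of every control CLIP row in the 7 genes with 3 or more high-read sites, as a percent of the gene span from 5′ to 3′. The area of a mark shows its reads; red marks have 15 or more reads and lie off H3K4me3, grey marks are the other rows. The MPO marks spread over 66.3% to 94.3% of the gene, while the red marks of CDCA5, DHX38 and UNC5B fall in 1 run each.

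By function, the sites reached many kinds of genes. Of the 2676 protein-coding genes with any control CLIP peak, 4.11% had a high-read site, and the lists below were chosen with results of these data known. The 2676 genes and the list totals were not limited by length, rows or H3K4me3, so some could not hold such a site. Within those limits, 110 genes had a high-read site and 1807 had sites under 15 reads alone. Among 18 genes with CLIP that host small nucleolar RNAs in their introns, outside the ribosomal proteins, 4 had one: NOP56, HSPA8, PPAN and TNPO2. Among 21 splicing and RNA-binding factors, 3 did, namely SON, the RNA helicase DDX17 and PRPF8, the core protein of the spliceosome. Translation factors gave 2 of 11, EEF1D and the release factor ETF1. Chaperones gave 2 of 9, CANX (calnexin) and HSPA8. Chromatin regulators gave 2 of 33, the H3K4 methyltransferase KMT2D and the histone acetyltransferase subunit TRRAP, and the cytoskeleton gave 2 of 20, CORO1C and talin (TLN1). There was 1 each among 6 ribosomal proteins (RPSA), 7 myeloid genes (MPO), 25 transcription factors and their signalling partners (STAT5B) and 5 energy genes (PFKP). None of the 8 lysosome genes, 2 histone genes or 8 known QKI targets with control CLIP had a site among the 156. With so few members a list, none is called particular beside the 4.11% of all CLIP genes.

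Small RNA genes of RefSeq lay under 3 of the sites, and 2 of these recurred in knockdown. Pseudogenes of small RNAs were not counted. The RPSA site overlaps SNORA62. The NOP56 site (chromosome 20, 2656641-2656657, plus strand) overlaps SNORD56, and the HSPA8 site (chromosome 11, 123058155-123058160, minus strand) overlaps SNORD14E. NOP56 is itself a core protein of the particles that box C/D small nucleolar RNAs guide, and HSPA8 is the constitutive HSP70 chaperone. Reads there cannot be split between the host transcript and the small RNA. The NOP56 site had 22 reads and a log2 enrichment of 5.16 in knockdown, against 41 reads and 3.73 in control. The HSPA8 site had 17 reads and 3.15 in knockdown, against 22 reads and 3.03 in control. At RPSA the knockdown list had a peak assigned to the gene but none on this site. A further 9 sites also lie inside another protein-coding gene. All 124 sites whose gene has a strand in the promoter table lay on that strand.

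The knockdown CLIP list answers which of these sites were found again in cells with the sh-QKI5 hairpin. A knockdown peak on the same strand overlapped 16 of 156 high-read sites, 10.3% (95% exact Clopper-Pearson interval 5.98 to 16.1), while 1.98% of all control CLIP peaks were overlapped. Among 3426 sites under 15 reads in the same kind of gene, 9 were overlapped, 0.263% (0.120 to 0.498). The difference was 9.99 percentage points (95% Newcombe interval 6.14 to 15.7). High-read sites in longer genes or in genes with more rows gave 19 of 161, 11.8% (7.26 to 17.8), and the difference from these, -1.54 points (-8.58 to 5.53), includes 0. By gene length, 4 of 63 high-read sites were found again in genes under 25 kb, 6 of 71 in those of 25 to 100 kb and 6 of 22 in those of 100 to 200 kb, and in each class the interval of the difference from sites under 15 reads lies above 0. All intervals cover counting error only, since touching sites are not independent.

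The steps in read number were uneven. No site with 3 to 9 reads was found again, of 702 with 3 to 7 and 1607 with 8 or 9. Of the 1117 sites with 10 to 14 reads, 9 were found again (0.806%), and of the 115 with 15 to 19 reads 1 was (0.870%). Of the 27 with 20 to 34 reads 6 were found again (22.2%), and of the 14 with 40 to 249 reads 9 were (64.3%). The excess of the high-read sites thus lies in those with 20 or more reads.

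The sites found again were also narrow, a feature picked after their values were seen. Their median width was 14 bp, against 58.5 bp for the other 140, and their median log2 enrichment in control was 7.25, against 3.92. Of the 33 sites narrower than 30 bp, 15 overlapped a knockdown peak, 45.5% (28.1 to 63.6), and of the 123 wider ones 1 did, 0.813% (0.0206 to 4.45). This split by width was not computed for sites under 15 reads. Many of those were narrow too, 645 of 1828 at 1 or 2 implied background reads and 310 of 1404 at 3 to 10. Only 9 of all 3426 were found again, so most narrow ones were not. Narrow rows often come in touching pairs, so the 16 sites make 11 runs in 11 genes. Apart from TRPM4 with 100 bp, the runs spanned 6 to 26 bp.

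CARS2, the mitochondrial cysteinyl-tRNA synthetase, showed the largest gap in reads. Its run on chromosome 13 (110647477-110647500, minus strand, 91.6% along the gene) had 28 reads and a log2 enrichment of 4.33 in knockdown, against 153 reads and 7.72 in control. LTBP3, which binds latent TGF-beta, had nearly equal reads, with 47 in knockdown and a log2 enrichment of 7.18, against 52 reads and 6.45 in control, in 22 bp of chromosome 11 (65552391-65552412, minus strand). SPTLC2, a subunit of the first enzyme of sphingolipid synthesis, had 25 reads and 8.59 in knockdown, against 51 reads and 7.27 in control. Its run lies at 98.3% of the gene (chromosome 14, 77507860-77507880, minus strand). SCRG1 had 18 reads and 7.53 in knockdown, against 40 reads and 7.25 in control. MYOM2, a protein of the muscle M-band, had 6 reads and 7.53 in knockdown, against 31 reads and 8.88 in control. Reads were lower in the knockdown list for all these genes, an order that choosing sites by control reads favours. The enrichment moved both ways.

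The rest, named after their values were seen, were BFSP2, SLC6A4, ANKRD26 and TRPM4. BFSP2, a filament protein of the eye lens, had 23 reads and a log2 enrichment of 8.47 in knockdown, against 29 reads and 6.78 in control. SLC6A4, the serotonin transporter, had 21 reads and 6.75 in knockdown, against 24 reads and 7.51 in control. ANKRD26 had 11 reads and 6.82 in knockdown, against 20 reads and 5.66 in control, and its knockdown row carries the identifier of a U6 small nuclear RNA pseudogene. TRPM4, a calcium-activated cation channel, had 9 reads and 6.53 in knockdown, against 17 reads and 7.01 in control. Over all 11 runs, the knockdown reads ran from 6 to 47 with a median of 21, and the control reads from 17 to 153 with a median of 31. Reads were lower in knockdown at 11 of 11 runs, and the log2 enrichment was higher in knockdown at 7 and lower at 4. These counts were not made for the other control peaks found again, so they are a description only. The inferred factor of the arithmetic above is 30.9 in knockdown and 15.2 in control, and the depth of the samples is unknown, so these reads are not a measure of binding lost. Peaks with under 15 reads also count in the knockdown list here, while the runs were chosen for 15 or more reads in control. That choice by itself favours lower reads in knockdown.

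**Figure D3:**
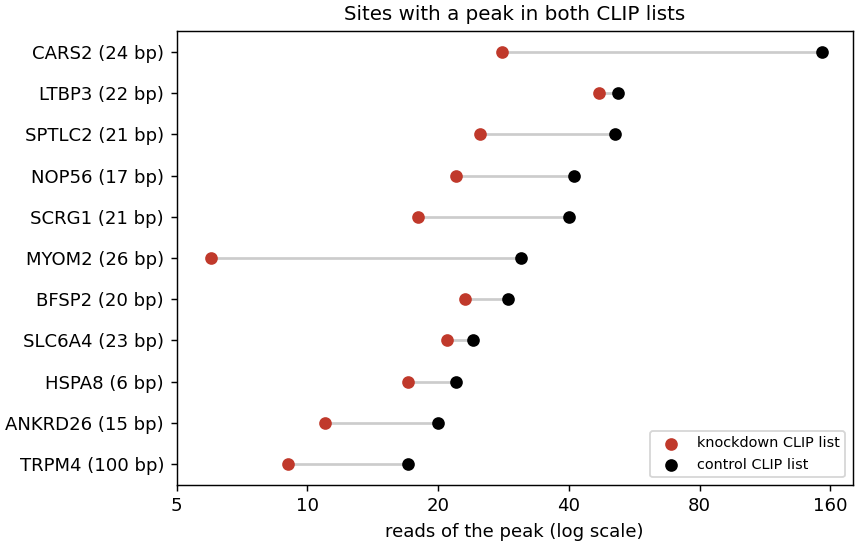
Reads of the peak (horizontal, log scale) in the knockdown list (red) and in the control list (black) for the 11 runs found in both, with the width of the control run beside the gene name. Every red point lies left of its black point, most widely at CARS2 and MYOM2 and least at LTBP3 and SLC6A4. Choosing the sites by control reads favours this order.

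Peaks near the gene ends were missing for some of these genes. Of the 11 genes with a run found again, 4 had no H3K4me3 or Pol II peak within 1 kb of either end in any of the 4 lists, namely BFSP2, MYOM2, SCRG1 and SLC6A4. Of the other 99 genes, 3 had none, namely MPO, HOXB3 and TMEM273 (HOXB3 and TMEM273 were also named after their values were seen). The 4 genes were picked from the outcome, so this is a description. Of all 18638 protein-coding genes under 200 kb, 6672 had no Pol II peak there in either list and 6053 no H3K4me3 peak. Of 1807 genes with sites under 15 reads alone, 209 had no Pol II and 193 no H3K4me3. Genes that lacked both marks were not counted in these 2 sets.

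At the level of the gene, a knockdown CLIP peak was assigned by name to the gene of 33 of 156 high-read sites, 21.2% (15.03 to 28.4), with 9.3% for all control CLIP peaks. Whether such a peak lay inside the gene span was not checked. For sites under 15 reads it was 223 of 3426, 6.51% (5.71 to 7.39), a difference of 14.6 points (8.90 to 21.7). The 17 sites whose gene had a knockdown peak assigned to it, but none on the site, were in 14 genes, among them RPSA, EEF1D, TRRAP, SSBP4 and a second NOP56 site.

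Pol II was compared next, since QKI5 is nuclear and the title of the series concerns transcription. A Pol II peak covered 26 of 156 high-read sites in knockdown, 16.7% (11.2 to 23.5), and 37 in control, 23.7% (17.3 to 31.2), with 13.6% and 13.2% of all control CLIP peaks covered in knockdown and in control. Sites under 15 reads were covered in 199 of 3426 cases in knockdown (5.81%) and 191 in control (5.58%). The differences were 10.9 points (5.76 to 17.5) in knockdown and 18.1 points (12.1 to 25.4) in control. High-read sites in longer or denser genes stood at 10 of 161 in knockdown (6.21%) and 7 in control (4.35%). These were lower than the high-read sites in shorter genes by 10.5 points (3.47 to 17.7) in knockdown and 19.4 points (11.96 to 26.96) in control. The 161 sites come from only 34 genes, and the intervals treat sites of the same gene as independent. By gene, knockdown Pol II covered a site in 19 of 110 genes (17.3%) and 2 of 34 (5.88%). Control Pol II did so in 23 of 110 (20.9%) and 3 of 34 (8.82%). The sets differ in gene length by the rule, and this contrast was not made within classes of length. The background share of all control CLIP peaks includes sites on promoters, which are excluded from the high-read sites described.

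The share on Pol II moved with gene length and with the implied background. In genes under 25 kb, knockdown Pol II covered 28.6% of high-read sites (18 of 63) and 15.6% of those under 15 reads, a difference of 13.005 points (2.84 to 25.4), and control Pol II covered 36.5% (23 of 63) and 15.6%, a difference of 20.9 points (9.70 to 33.6). In genes of 25 to 100 kb the differences were 6.13 points (0.564 to 15.6) in knockdown and 13.8 points (6.45 to 24.4) in control. In genes of 100 to 200 kb, 0 of 22 sites in knockdown and 1 of 22 in control lay on Pol II, and both intervals of the difference include 0. Within classes of the implied background, which were chosen after values were seen, the differences were smaller. At 21 or more background reads, knockdown Pol II covered 16 of 51 high-read sites (31.4%) and 6 of 24 others (25%), and control Pol II covered 23 of 51 (45.1%) and 8 of 24 (33.3%). At 11 to 20 background reads, 15.2% of high-read sites and 12.4% of the others lay on knockdown Pol II, and 17.4% of high-read sites and 11.2% of the others on control Pol II. At 3 to 10 background reads, 7.50% of high-read sites and 7.55% of the others lay on knockdown Pol II, and 15% of high-read sites and 7.55% of the others on control Pol II. At 1 or 2 background reads, 0 of 19 high-read sites lay on Pol II in either list, which allows a share of up to 17.6% by the exact interval, against 3.61% and 3.17% of the others in knockdown and control. In each of these 4 classes the interval of the difference includes 0 in both lists. The classes are small, so these intervals do not show that a difference is absent. For control Pol II it was -3.17 points at 1 or 2 background reads, 7.45 at 3 to 10, 6.21 at 11 to 20 and 11.8 at 21 or more. At 21 or more, the 24 others had log2 enrichments of only 3.03 to 3.34, so their reads lay close to the minimum.

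**Figure D4:**
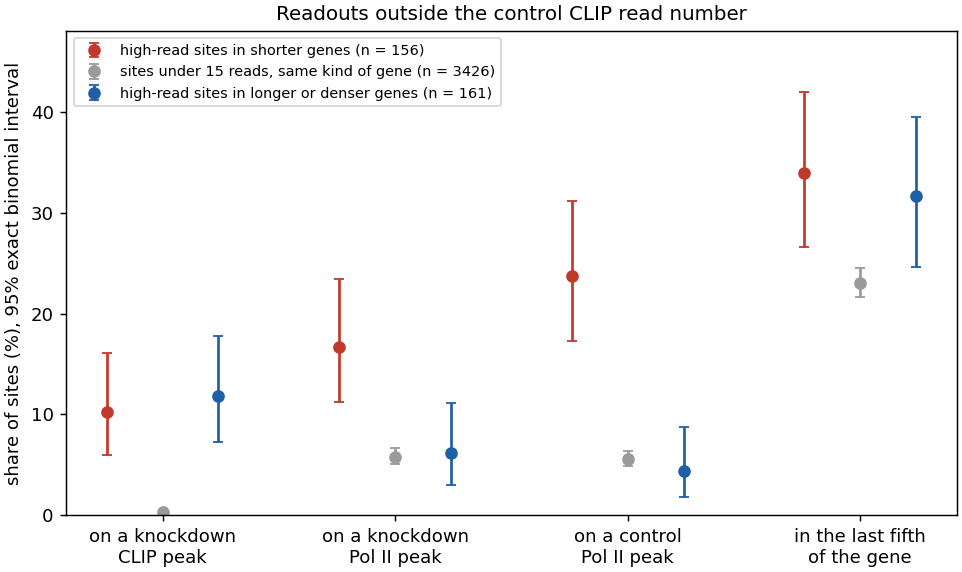
Share of sites (vertical, percent, with 95% exact binomial intervals for counting error) for 4 readouts that did not choose the sites. Red is the high-read sites in shorter genes (n = 156), grey the sites under 15 reads in the same kind of gene (n = 3426), blue the high-read sites in longer or denser genes (n = 161). Red stands above grey in all 4 readouts, and above blue on Pol II. The blue sites come from only 34 genes, and gene length was not matched between red and blue.

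The peaks under these sites were wide. The 26 sites on knockdown Pol II lay on 19 peaks with a median width of 3326 bp over the sites, and the 37 on control Pol II on 23 peaks with a median of 7119 bp. In both lists 21 sites were covered, in control alone 16 and in knockdown alone 5. That split was not computed for other sites, so it is a description only. Of all 7337 control CLIP peaks, 995 lay on knockdown Pol II and 966 on control Pol II. RPSA lay in Pol II peaks of 8772 bp in knockdown and 7850 bp in control. LENG8 lay in peaks of 3326 bp in knockdown and 11807 bp in control, and ARL6IP1 in peaks of 5355 bp in knockdown and 10133 bp in control. The NOP56 site on SNORD56 lay in a peak of 3018 bp in knockdown and 8248 bp in control. FASN (fatty acid synthase) had 22 reads at its site, which lay in a peak of 9230 bp in knockdown and 10834 bp in control. DDX17 had the wider peak in knockdown, 19398 bp against 14203 bp in control, and CANX had peaks of 6727 bp in knockdown and 7121 bp in control. The HSPA8 site lay on a 12031 bp peak in knockdown and 313 bp from the nearest control peak.

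Several of the sites in control alone missed a knockdown peak by little. In SON, control Pol II covered all 5 sites with 1 peak of 7119 bp. In knockdown a peak of 2859 bp covered the 2 sites of the second run, and the 3 of the first run lay 304 to 461 bp from a peak. CDCA5 lay in a control peak of 5498 bp, and in knockdown 654 to 758 bp from one. SSBP4 was 14 bp from a knockdown peak and inside a control peak of 5458 bp, and YWHAG, a 14-3-3 protein, 203 bp from a knockdown peak and inside a control peak of 10988 bp. The ETF1 sites lay on a control peak of 809 bp and 2729 and 2754 bp from one in knockdown. PFKP, a phosphofructokinase, lay on a 501 bp peak in knockdown and 3699 bp from one in control. With pooled lists, a peak split in 1 list and whole in the other cannot be told apart from a change in Pol II.

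Knockdown H3K4me3 covered 2 of 156 sites, 1.28% (0.156 to 4.55), with 12.8% of all control CLIP peaks covered. The 2 sites, in PIGQ (on a peak of 4531 bp) and CELSR2 (2823 bp), were 50 bp (PIGQ) and 690 bp (CELSR2) from a control H3K4me3 peak. Sites under 15 reads were covered in 28 of 3426 cases, 0.817%, and the interval of the difference includes 0 (-0.533 to 3.75 points). The rule leaves out control H3K4me3 in both sets of sites, which keeps both shares low. The nearest control H3K4me3 peak lay 50 to 105691 bp away with a median of 7672 bp, and 16 sites were within 1 kb of one.

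Along the gene, more of the high-read sites than of the others lay near the 3′ end. Within classes of the implied background the direction was mixed. The last 20% of the gene span held 53 of 156 sites, 34.0% (26.6 to 42.0), with 20.4% for all control CLIP peaks inside protein-coding genes. Of the sites under 15 reads it held 790 of 3426, 23.1% (21.7 to 24.5), and the difference was 10.9 points (3.80 to 18.8). High-read sites in longer or denser genes stood at 51 of 161, 31.7%, with a difference of 2.30 points (-7.97 to 12.5). The first 20% of the gene held 22 of 156 sites, 14.1%, against 14.9% of those under 15 reads, with 24.5% for all control peaks. Within classes of gene length the differences were 11.2 points (-0.398 to 24.002) under 25 kb, 6.58 points (-2.99 to 18.2) from 25 to 100 kb and 15.2 points (-1.57 to 36.1) from 100 to 200 kb, and each interval includes 0. Within classes of the implied background the direction was kept at 3 to 10 reads and not in the others. At 1 or 2 background reads the last 20% held 15.8% of high-read sites and 20.8% of the others, at 3 to 10 it held 35% of high-read sites and 23.9% of the others, at 11 to 20 it held 30.4% of high-read sites and 37.1% of the others, and at 21 or more it held 43.1% of high-read sites and 50% of the others. The high-read share was the lower one in 3 of these 4 classes, and the interval of the difference includes 0 in each.

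The last 10% of the gene alone held 33 sites in 28 genes, 21.2%, against 12.6% of the sites under 15 reads. The last 1 kb held 20 sites in 16 genes, a count not made for other sites. The median gene length was 35.5 kb for high-read sites and 59.7 kb for those under 15 reads, so 1 kb is not the same part of the gene in both. ARL6IP1, a membrane-shaping protein of the endoplasmic reticulum, had its site 0.269 kb before the gene end, with 25 reads and a log2 enrichment of 3.18. SSBP4 had its site 0.386 kb before the end with 22 reads and 3.06, and YWHAG 0.868 kb before the end with 21 reads and 4.23. CORO1C, an actin-binding coronin, had 20 reads and 3.39 at 98.7% of its gene, and CANX 20 reads and 3.20 at 94.9%. Exons were not assigned, so whether these sites lie in a 3′ untranslated region was not tested. Gene spans come from GRCh38.p14, a later patch of the build of the files.

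**Figure D5:**
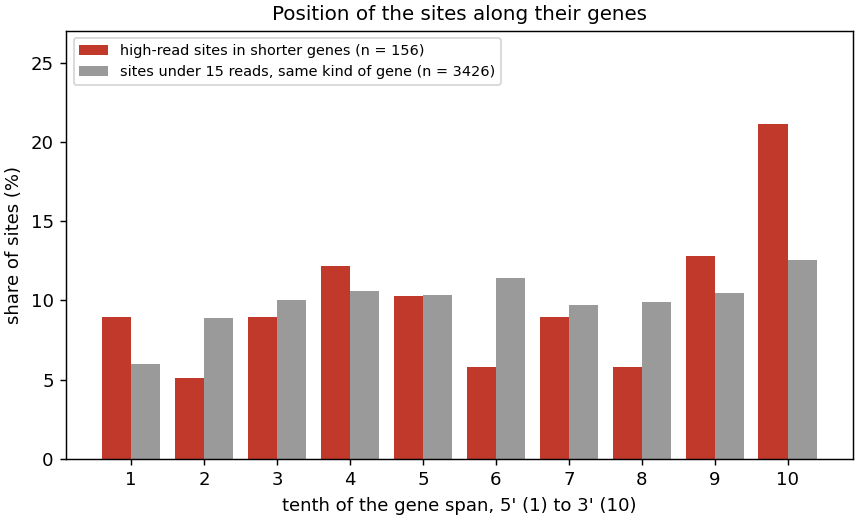
Share of sites (vertical, percent) in 10 equal parts of the gene span from 5′ (1) to 3′ (10), for high-read sites in shorter genes (red, n = 156) and sites under 15 reads in the same kind of gene (grey, n = 3426). The last part is the highest in both, with 21.2% in red and 12.6% in grey.

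The sites can also be ordered by their implied background. The 19 sites with an implied background of 1 or 2 reads came from 12 genes, with log2 enrichments from 6.92 to 9.35. They include MPO, MYOM2, CACNA2D4 (2 touching rows of 19 reads and 8.17 each, in 22 bp of chromosome 12 at 1831252-1831273, minus strand) and DAAM1, a formin that builds actin filaments (16 reads, 7.92). Of these 19 sites, 4 overlapped a knockdown peak (21.1%), against 4 of 1828 sites under 15 reads (0.219%), a difference of 20.8 points (8.28 to 43.1). At 3 to 10 background reads it was 8 of 40 high-read sites (20%) and 4 of 1404 others (0.285%), a difference of 19.7 points (10.2 to 34.5). The 51 sites with 21 or more background reads came from 41 genes, with log2 enrichments from 3.02 to 3.73, and 2 of them overlapped a knockdown peak, against 0 of 24 sites under 15 reads. At 11 to 20 it was 2 of 46 high-read sites and 1 of 170 others. In these last 2 classes the interval of the difference includes 0. High background and low enrichment go together by construction.

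Finally, peaks near the outer ends of the gene spans were compared between the lists. A start inside the span is missed this way. A Pol II peak within 1 kb of a gene end was present in both lists for 94 of 110 genes, 85.5% (77.5 to 91.5), with 57.6% for all protein-coding genes. Genes with sites under 15 reads alone stood at 1515 of 1807, 83.8%, and the interval of the difference includes 0 (-6.34 to 7.29 points). Pol II was at a gene end in knockdown alone for 2 genes, GAS6 and SPTLC2, and in control alone for 3, KANSL1, SOCS2 and TMEM81. At SPTLC2 the knockdown peak was 1762 bp wide, and at GAS6 1947 bp. The control peaks were 501 bp wide at KANSL1 and TMEM81, the narrowest width in the lists, and 859 bp at SOCS2, a suppressor of cytokine signalling. H3K4me3 was at a gene end in both lists for 96 of 110 genes, 87.3% (79.6 to 92.9), with 66.6% for all protein-coding genes and 88.5% for genes with sites under 15 reads alone. By the same measure, 144 of the 18638 genes under 200 kb had it in knockdown alone and 108 in control alone. Among the 110 genes it was present in knockdown alone at SLC37A1 and in control alone at PAPLN and SLC26A1. The starts in the RefSeq promoter table gave another picture for some of these genes. H3K4me3 lay on a start of PAPLN in both lists, 3131 bp wide in knockdown and 3497 bp in control, and on an inner start of SLC37A1 in both, 3770 bp wide in knockdown and 2819 bp in control. Pol II lay on 2 inner starts of KANSL1 in both lists, 4546 bp wide in knockdown and 3475 bp in control. At the listed starts of GAS6 and SPTLC2, Pol II was in knockdown alone. The difference in gene-end H3K4me3 from the genes with sites under 15 reads alone was -1.22 points (-8.85 to 4.01).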

How the data were processed

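The series holds 22 THP-1 samples in 10 groups, assigned from the sample labels, and 6 deposited peak lists that pool both replicates of their group. HOMER and GRCh38.p5 are named, with no role, in the submitters' processing notes. The sources used here do not give the aligner, the caller, its settings or any use of the inputs. The authors' CLIP lists have no header, and their columns were read from the values as the -log10 p of each peak, its log2 enrichment, its reads and its gene. In the control list, 49 of the 156 sites share a -log10 p of 15.66 and 3 are at 400, so this value does not rank the sites. The authors' ChIP lists hold a score of 1 at every peak, which ranks nothing.

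The read number and control H3K4me3 chose the sites. The rule was applied by gene name, with Ensembl identifiers turned into symbols and matched to RefSeq (6903 of 7337 control peaks). It gave 160 sites, and 4 outside the span of the named gene (3 at CCDC200, listed as LINC00854, with 93, 99 and 59 reads, and 1 at DGKQ with 18) were left out. Peaks overlapped if they shared 1 bp or more, and for CLIP also the strand. Shares have exact Clopper-Pearson and differences Newcombe 95% intervals, with no p-value, since no list has replicates. The sites and gene lists were chosen with earlier results of these data known. Sites were named if among the 15 with the most reads, the 10 with the highest log2 enrichment, the 10 with the most reads found again in knockdown or on Pol II, in a gene with 3 or more sites, or in a gene list (up to 4 each). The 3 sites with the highest log2 enrichment at exactly 15 and at exactly 14 reads were also to be named, of which 1 gene is not reported here. TMEM273, TOMM70 and others carry older symbols in the files, and the names of the RefSeq table were used. Alternatives changed the read minimum, gene length, rows per gene, merging, enrichment, -log10 p, overlap and peak width. Helper functions were tested on simulated data. Python 3.11.15, pandas 2.3.3, NumPy 2.4.6, SciPy 1.17.1 and matplotlib 3.10.9 were used.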

Additional observations from a re-analysis of the deposited data

How the results depend on the processing

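No paired analysis was possible because every list pools its replicates. Of 85 alternative values, 64 stayed within 1.5 times the count or inside the 95% interval reported, and 21 moved outside. Some could not move, such as the share of genes when touching sites were merged. Differences from the comparison sites were not recomputed, so whether a direction turned was not tested. From 156 sites, the number became 1273 with at least 10 reads, 41 with at least 20, 101 in genes with 1 to 3 rows and 82 with a log2 enrichment of at least 4. With at least 10 reads, 1.96% overlapped a knockdown CLIP peak, 9.19% had one assigned to the gene, and 9.58% and 10.4% lay on knockdown and control Pol II. With at least 20 reads, 36.6% overlapped a knockdown CLIP peak, 48.8% had one assigned to the gene and 0 lay on knockdown H3K4me3. At that minimum 56.1% lay in the last 20% of the gene, and 76.7% of genes had Pol II at an end in both lists. With a log2 enrichment of at least 4, 17.1% overlapped a knockdown CLIP peak, and 6.10% and 9.76% lay on knockdown and control Pol II. Genes with 1 to 3 rows gave 16.8% on control Pol II. Knockdown peaks of at least 15 reads alone gave 10.9% of sites with one assigned to the gene. The last 1 kb of the gene held 12.8%, a share not computed for other sites. Leaving out H3K4me3 of either list gave 0 on knockdown H3K4me3 by construction. After the data were seen, sites narrower than 30 bp were left out, and 0.813% overlapped a knockdown CLIP peak. Except where construction is named, the cause was not tested. The depth of the samples is unknown, and a site missing from the knockdown list may be one that list could not detect.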
